A study of Homo sapiens with 24 samples.

Results

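The genes examined were NFE2L2, which encodes the transcription factor NRF2, KEAP1, which encodes the adaptor that marks NRF2 for degradation, and 7 antioxidant genes that NRF2 is known to activate, HMOX1, NQO1, TXNRD1, GCLC, GCLM, SRXN1 and PRDX1. These 9 genes were looked up by Ensembl identifier among the 60279 genes counted in each of 24 RNA-seq libraries of SW872 cells, and 8 of them had enough counts to be tested. In cells with the fusion YAP-TFE3, 6 of the 8 rose against empty vector and KEAP1 fell, and the rises ranged from 1.76-fold for NFE2L2 to 3.92-fold for TXNRD1. Over all genes tested, 25.6% were called higher and 22.6% lower in the same comparison. In YAP5SA and in the libraries labelled TAZ4SA the genes moved in different directions, and TXNRD1 rose 5.79-fold and 4.30-fold while NQO1 fell to 0.670 and 0.516 of its level in empty vector. TAZ-CAMTA1 cells had smaller differences, and TFE3 and CAMTA1 on their own had none that passed the test. In vector cells titled sub-confluent, 5 of the 8 were called higher than in confluent vector cells and 0 lower. Over all genes tested, 19.8% and 17.1% were called higher and lower in that comparison. When libraries were scaled by their totals alone, 2 of the 8 were called higher.

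NRF2 is a basic leucine zipper factor that is held at a low level in resting cells, because KEAP1 bridges it to a CUL3 ubiquitin ligase. Oxidants and electrophiles modify cysteines of KEAP1, NRF2 then accumulates, pairs with a small MAF protein and binds antioxidant response elements in its target genes. The control therefore acts largely on the protein, which RNA counts do not measure. The targets studied here supply glutathione (GCLC and GCLM), reduce thioredoxin (TXNRD1), reduce quinones (NQO1), break down heme (HMOX1), and remove peroxides or repair the enzymes that do so (PRDX1 and SRXN1).

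SW872 is an established human liposarcoma cell line. Cells were transduced with a retroviral pBabeNeo vector and selected with G418 as pooled stable lines, and each of the 8 groups had 3 libraries, which the study describes as biological triplicates. The groups carried empty vector (EV), TAZ-CAMTA1, TAZ4SA, YAP-TFE3, YAP5SA or TFE3 and were collected 48 h after confluence, whereas CAMTA1 cells and, by its titles, a further empty vector group, EVsub, were sub-confluent. All cDNAs carried a double Flag tag and were expressed from the vector on top of the endogenous genes. TAZ and YAP are coactivators restrained by the Hippo kinases, TAZ4SA and YAP5SA lack serines that those kinases phosphorylate, and the fusions join parts of TAZ or YAP to C-terminal parts of the factors CAMTA1 or TFE3. The growth description names only CAMTA1 as an exception to confluence. Values are CPM (counts-per-million) scaled by trimmed mean of M-values (TMM), and in such bulk samples fewer cells expressing a gene and less RNA per cell cannot be told apart.

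Library totals ranged from 19700277 to 35287476 counts, and the 9 genes together took 0.169% to 0.410% of a library. ADIPOQ, a defining adipocyte gene, had 0 counts in all 24 libraries, FABP4 had 0 in 20, LEP in 19 and CIDEC in 11. PLIN1 was counted in every library, at 0.353 to 1.35 CPM of unscaled totals, and PPARG had 24.5 to 101. The mesenchymal genes VIM, FN1 and SPARC had at least 455, 751 and 461 CPM of unscaled totals. The mesenchymal genes COL1A1, THY1 and COL1A2 went down to 6.69, 9.76 and 16.3. The summed level of 4 epithelial markers was 207 to 230.3 CPM of unscaled totals in EV, 1804 to 1944 in the libraries labelled TAZ4SA and 2903 to 3648 in YAP5SA, almost all from KRT8 and KRT18. It was 436 to 535 in TAZ-CAMTA1, 417 to 449 in EVsub, 435.7 to 599.8 in CAMTA1 and 238.3 to 347.3 in YAP-TFE3. In TFE3 cells it overlapped EV. The sum of 6 mesenchymal markers was 6624 to 7545 in EV and 2085 to 3016 in the libraries labelled TAZ4SA. It was 2444 to 4127 in YAP5SA, 3614 to 3802 in EVsub and 3604 to 4573 in CAMTA1. It was 8012 to 9875 in TAZ-CAMTA1 and 7602 to 9474 in TFE3, above EV, and overlapped EV in YAP-TFE3. The sum of 3 endothelial markers was 82.0 to 122 in EV and 7.97 to 11.1 in YAP5SA. It was also below EV in YAP-TFE3 (33.3 to 49.78) and in the libraries labelled TAZ4SA (26.22 to 40.61). The same held for EVsub (29.98 to 44.61) and CAMTA1 (18.46 to 26.51), whereas TAZ-CAMTA1 and TFE3 overlapped EV. The sum of the adipocyte markers was 45.84 to 54.05 in EV, and overlapped it in EVsub. It was above EV in YAP-TFE3 (61.83 to 102.3), TAZ-CAMTA1 (61.3 to 74.09) and TFE3 (56.2 to 58.89). It was below EV in YAP5SA (26.74 to 33.92), CAMTA1 (40.38 to 44.2) and the libraries labelled TAZ4SA (24.99 to 30.47). The part of these shifts in the results below was not tested. RNA of the transduced gene was higher than in its control for CAMTA1 in the CAMTA1 and TAZ-CAMTA1 groups, for YAP1 in YAP5SA, and for TFE3 in TFE3 and YAP-TFE3. TFE3 was 2.82-fold and 2.37-fold of EV in the last 2 groups. It was also called higher in groups without a TFE3 construct, at 1.56-fold in YAP5SA and 1.46-fold in the libraries labelled TAZ4SA. YAP1 had 165, 159 and 135 CPM in YAP-TFE3 and 141, 127 and 116 CPM in EV, which overlapped. It was 1.32-fold of EV in TAZ-CAMTA1, which has no YAP construct, so YAP1 does not check the label of YAP-TFE3. WWTR1, which encodes TAZ, went against its label, with a mean of 204 CPM in EV but 134 CPM in the libraries labelled TAZ4SA (log2 fold change against EV -0.60, edgeR quasi-likelihood adjusted p = 9.77e-07), and 181 CPM in TAZ-CAMTA1. It was also lower than in EV in groups without a TAZ construct, with 126 CPM in YAP-TFE3 and 68.8 CPM in YAP5SA, so the sum of endogenous and transduced RNA does not tell whether the construct was present. YAP-TFE3 replicate 3 stood apart from the other libraries of its group. The chi-square per degree of freedom between its counts and theirs was 56.2 and 71.4, against at most 25.95 for every other pair of replicates. Calls of the 8 tested genes and counts over the pathway lists that involve YAP-TFE3 are therefore also given without it.

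The 9 genes lie on 8 chromosomes of GRCh38. NFE2L2 (ENSG00000116044) spans chr2:177218667-177392756 on the minus strand, KEAP1 (ENSG00000079999) chr19:10486125-10503558 on the minus strand, and HMOX1 (ENSG00000100292) chr22:35380361-35394214 on the plus strand. NQO1 (ENSG00000181019) spans chr16:69706996-69726668 and GCLC (ENSG00000001084) chr6:53497341-53616970, both on the minus strand, and TXNRD1 (ENSG00000198431) chr12:104215779-104350307 on the plus strand. GCLM (ENSG00000023909) and PRDX1 (ENSG00000117450) are both on the minus strand of chromosome 1, at chr1:93885199-93909456 and chr1:45510914-45542732, and SRXN1 (ENSG00000271303) is at chr20:646615-653200 on the minus strand. All are annotated as protein coding in GENCODE release 44. Exon sharing was read from release 44, which holds 56104 of the 60279 counted identifiers, whereas the study states annotations of Ensembl release 78. In release 44, KEAP1, HMOX1, TXNRD1 and GCLM share no exon bases with another counted gene. NQO1 and GCLC share some only with genes that had almost no counts. NFE2L2 shares exon bases with HNRNPA3 and AGPS on the opposite strand and with a weakly counted gene on its own strand, and PRDX1 shares some with MMACHC on the opposite strand. Whether the counting used strand is not given in the sources used here, so the counts of NFE2L2 and PRDX1 may include reads of these neighbours.

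The antioxidant response element is the sequence through which NRF2 acts, so the promoters of the genes were searched for its core, TGACNNNGC, on both strands. RefSeq windows (GRCh38.p14) of 300 bases, from 250 bases before to 50 after a start site, were at hand for 7 of the 9 genes, and for 3 of these there were 2 windows, 10 in all. HMOX1 and PRDX1 were not matched. The core was found in 4 of the 10 windows and 3 of the 7 genes, GCLM, KEAP1 and TXNRD1, against 13.3% of all 35116 windows. The matches are shown because they include those of TXNRD1, the gene whose level varied most, and of KEAP1, the inhibitor. They are printed along the strand of the gene with 8 bases on either side and the core in capitals.
GCLM, chr1:93909448-93909472, minus strand: cgatttctGCTTAGTCAttgtcttc
KEAP1, chr19:10502809-10502833, minus strand: ttttattgTGACACGGCgggcgccc
KEAP1, chr19:10502786-10502810, minus strand: ccggctctGCTTAGTCAtggtgacc
TXNRD1, chr12:104215672-104215696, plus strand: acgggctaTGACTTCGCtgttgtca
TXNRD1, chr12:104215763-104215787, plus strand: gtccttcgGCTCCGTCAgttcccac
TXNRD1, chr12:104286922-104286946, plus strand: ggatttctGCTTTGTCAttctgact
Counted from the first transcribed base as 1, the match in GCLM lay at -34 to -26 and those in KEAP1 at -54 to -46 and -31 to -23. The matches in TXNRD1 lay at -99 to -91 and -8 to 1 in the upstream window and at -102 to -94 in the downstream window. Where the capitals begin with GC, the core reads on the opposite strand of the gene. GCLM and the downstream match of KEAP1 have the same 9 letters. The AP-1 site TGANTCA and the E-box CACGTG that TFE3 and its relatives bind were found in 0 of the 10 windows, against 7.71% and 7.26% of all windows. The TEAD site GGAATG was found in 1, that of SRXN1, against 14.03% of all windows. No match overlapped another motif. A match describes the letters in a window and says nothing of binding. A window without a match says nothing of sites outside its 300 bases.

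Levels of different genes were compared as CPM per kilobase of the canonical transcript. In EV, PRDX1 had the highest level per kilobase, 337 ± 7.95 (SD, n = 3), followed by NQO1 at 289 ± 26.9 and TXNRD1 at 82.7 ± 2.09. KEAP1 at 41.0 ± 2.87 and NFE2L2 at 37.5 ± 3.12 overlapped between libraries, and HMOX1 at 28.2 ± 2.21, GCLC at 8.78 ± 0.445 and GCLM at 3.62 ± 0.272 followed without overlap. The order of the leading 3 genes changed with the construct. TXNRD1 had the highest mean level per kilobase in the libraries labelled TAZ4SA, where it overlapped PRDX1, and in YAP5SA, where it was apart from it, and NQO1 was highest in YAP-TFE3. From group to group, PRDX1 varied least, by 0.30 on the log2 scale between its lowest and highest group means, and KEAP1 next, by 0.49. The ranges were 1.00 for GCLC, 1.05 for NFE2L2, 1.30 for GCLM, 1.67 for HMOX1, 2.02 for NQO1 and 2.53 for TXNRD1.

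**Figure D1:**
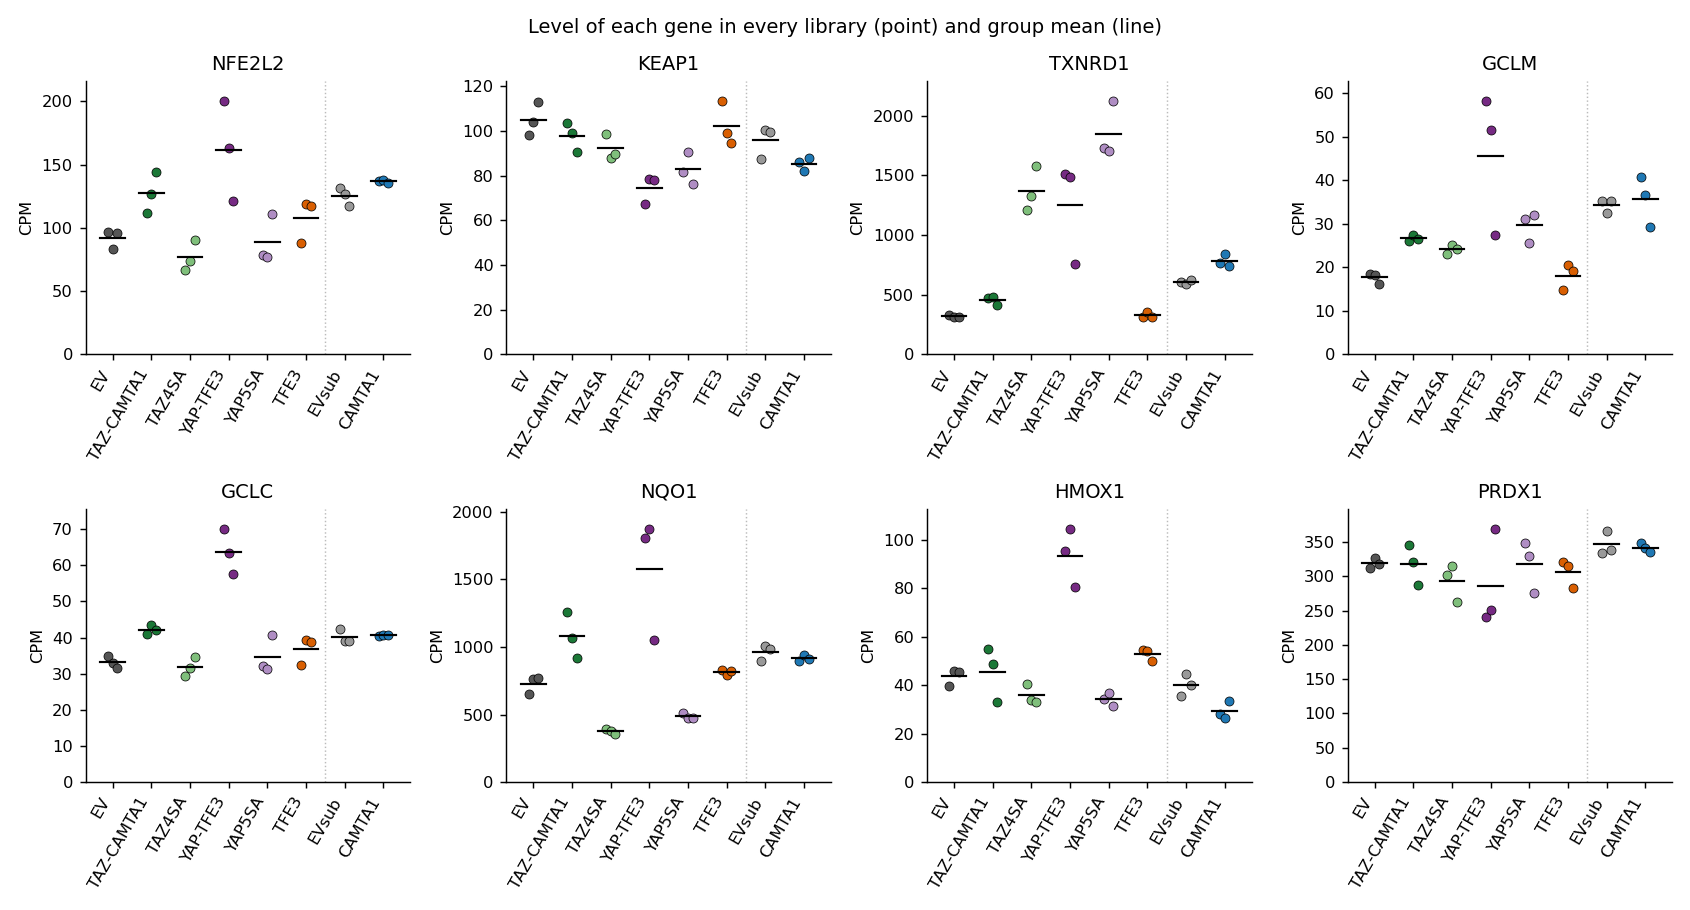
Level in CPM (linear axis from 0) of the 8 tested genes in every library (points) with the group mean (line), for the 6 confluent groups on the left of the dotted line and the 2 sub-confluent groups on its right. TXNRD1 is high in the libraries labelled TAZ4SA, in YAP-TFE3 and in YAP5SA, NQO1 is high in YAP-TFE3 and low in YAP5SA and in the libraries labelled TAZ4SA, and PRDX1 differs little between groups.

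NFE2L2 had 96.6, 82.96 and 95.7 CPM in the 3 EV libraries and 200.1, 163 and 121 CPM in the 3 YAP-TFE3 libraries. All YAP-TFE3 libraries were above all EV libraries, but they spread widely, with replicate 3 lowest. In TAZ-CAMTA1 it had 112, 127 and 144 CPM, also above every EV library. The libraries labelled TAZ4SA had 66.7, 74.1 and 90.6 CPM, YAP5SA had 78.8, 77.1 and 111 CPM, and TFE3 had 88.1, 119 and 117 CPM. Each of these 3 groups overlapped EV. The sub-confluent groups were higher than EV, with 131, 127 and 117 CPM in EVsub and 137, 138 and 135 CPM in CAMTA1. In the order of group means, from YAP-TFE3 at 161.5 ± 39.4 through CAMTA1, TAZ-CAMTA1, EVsub, TFE3, EV and YAP5SA to the libraries labelled TAZ4SA at 77.1 ± 12.3, each group overlapped the next.

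KEAP1 was highest in EV, with 98.2, 104 and 113 CPM, and lowest in YAP-TFE3, with 67.3, 78.4 and 78.1 CPM. YAP5SA had 81.8, 90.6 and 76.1 CPM, and both groups lay below every EV library. The other groups were between, with neighbours in the order overlapping throughout, and their group means ran from 102 ± 9.80 CPM in TFE3 to 85.4 ± 3.06 CPM in CAMTA1. The RNA levels of NFE2L2 and KEAP1 per kilobase can be set against each other as a ratio, which does not measure the proteins. Reads of neighbouring genes may be included in the counts of NFE2L2. This ratio was 1.03, 0.835 and 0.890 in the EV libraries and 3.12, 2.18 and 1.63 in the YAP-TFE3 libraries, so the groups did not overlap. Its mean was 1.38 ± 0.266 in TAZ-CAMTA1, 1.38 ± 0.178 in EVsub and 1.68 ± 0.0767 in CAMTA1, and 1.14 ± 0.337, 1.12 ± 0.270 and 0.883 ± 0.175 in YAP5SA, in TFE3 and in the libraries labelled TAZ4SA. Every library of TAZ-CAMTA1, EVsub and CAMTA1 also lay above every EV library, whereas the last 3 groups overlapped EV. Replicate 3 of YAP-TFE3 lay inside the ranges of TAZ-CAMTA1 and CAMTA1.

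TXNRD1 encodes the cytosolic thioredoxin reductase, which passes electrons from NADPH to thioredoxin. It had 329, 315 and 314 CPM in EV and 317, 359 and 311 CPM in TFE3, which overlapped. The 3 libraries labelled TAZ4SA had 1209, 1329 and 1578 CPM, and YAP5SA had 1728, 1700 and 2119 CPM. YAP-TFE3 had 1508, 1488 and 759 CPM, and all 9 of these libraries were above all EV libraries. Replicate 3 of YAP-TFE3 lay far below the other replicates of its group and inside the range of CAMTA1, which had 767, 837 and 736 CPM. TAZ-CAMTA1 had 472, 482 and 415 CPM and EVsub had 606, 594 and 627 CPM, all above EV. YAP5SA was apart from every other group, as were EVsub and TAZ-CAMTA1.

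NQO1 encodes a quinone reductase and was the most abundant of the targets by CPM in EV. It had 649.8, 764 and 769.6 CPM in EV, 392, 376 and 359 CPM in the libraries labelled TAZ4SA, and 510.3, 478 and 474 CPM in YAP5SA. The last 2 groups lay below every EV library, and the libraries labelled TAZ4SA lay below those of YAP5SA. YAP-TFE3 had 1808, 1872 and 1052 CPM and TAZ-CAMTA1 had 1258, 1065 and 915 CPM, all above EV, with replicate 3 of YAP-TFE3 inside the range of TAZ-CAMTA1. The means were 962 ± 60.9 CPM in EVsub, 917 ± 22.3 CPM in CAMTA1 and 813 ± 19.3 CPM in TFE3.

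GCLC and GCLM encode the catalytic and the modifier subunit of glutamate-cysteine ligase, the rate-limiting enzyme of glutathione synthesis. GCLC had 35.0, 32.9 and 31.7 CPM in EV and 70.05, 63.3 and 57.6 CPM in YAP-TFE3, where it was higher than in every library of every other group. TAZ-CAMTA1 had 40.9, 43.4 and 42.2 CPM, above all EV libraries, and the 3 libraries labelled TAZ4SA had 29.3, 31.6 and 34.6 CPM, which overlapped EV. GCLM had 18.5, 18.3 and 16.1 CPM in EV and 58.1, 51.4 and 27.4 CPM in YAP-TFE3, so that replicate 3 of YAP-TFE3 was at the level of TAZ-CAMTA1, with 25.9, 27.3 and 26.5 CPM. GCLM lay above EV in each library labelled TAZ4SA (23.1, 25.1 and 24.2 CPM), in YAP5SA (31.2, 25.6 and 31.99 CPM), in EVsub (35.2, 32.4 and 35.3 CPM) and in CAMTA1 (40.8, 36.5 and 29.3 CPM). In TFE3 it overlapped EV. The ratio of GCLM to GCLC per kilobase was 0.412 ± 0.0186 in EV and 0.489 ± 0.00194 in TAZ-CAMTA1. It was 0.589 ± 0.0399 in the libraries labelled TAZ4SA, 0.665 ± 0.0763 in YAP5SA, 0.663 ± 0.0339 in EVsub and 0.678 ± 0.112 in CAMTA1, none of which overlapped EV. In YAP-TFE3 it was 0.643, 0.629 and 0.368, and replicate 3 lay below the EV libraries.

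HMOX1 encodes heme oxygenase 1, which breaks heme down to biliverdin, iron and carbon monoxide. It had 39.9, 46.1 and 45.5 CPM in EV and 95.4, 104.5 and 80.5 CPM in YAP-TFE3, whose libraries were above those of all other groups. TFE3 had 54.4, 54.1 and 49.9 CPM, the next highest mean and above every EV library. TAZ-CAMTA1 spread from 33.1 to 54.9 CPM around EV. YAP5SA had 34.4, 36.9 and 31.4 CPM, below every EV library. CAMTA1 had the lowest mean, with 28.0, 26.5 and 33.6 CPM, and lay below EVsub, which had 35.5, 44.4 and 40.3 CPM.

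PRDX1 encodes a thiol peroxidase that is restored by thioredoxin. It had 312, 327 and 317 CPM in EV and 240.2, 250.4 and 369 CPM in YAP-TFE3, where replicate 3 was the highest and the others the lowest of all 24 libraries. In the remaining groups it lay between 262 and 366 CPM.

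SRXN1 encodes sulfiredoxin, which repairs overoxidised peroxiredoxins. It had at most 3 counts in 23 libraries and 83 counts in TAZ-CAMTA1 replicate 3, a mean of 4.21 counts, and did not reach the minimum mean of 5 counts that testing required. Of its 2528 exon bases, 2292 (90.7%) are shared with the readthrough gene ENSG00000270299 on the same strand, which itself had 1 to 14 counts. How reads in shared exons were counted is not given in the sources used here, and no fold is given for SRXN1.

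In YAP-TFE3 against EV, the largest rise was that of TXNRD1, with a log2 fold change of 1.97 (SE 0.17, adjusted p = 8.81e-10 by the edgeR quasi-likelihood test with Benjamini-Hochberg adjustment over 19997 genes, as throughout). GCLM followed with 1.36 (SE 0.18, adjusted p = 1.14e-06), NQO1 with 1.12 (SE 0.14, adjusted p = 5.96e-07) and HMOX1 with 1.09 (SE 0.14, adjusted p = 7.17e-07). GCLC rose by 0.94 (SE 0.10, adjusted p = 4.32e-08) and NFE2L2 by 0.81 (SE 0.16, adjusted p = 0.000143). KEAP1 fell by 0.49 (SE 0.09, adjusted p = 8.44e-05). The groups did not overlap for any of these 7 genes. Here and elsewhere, the share of all genes whose libraries did not overlap between groups was not counted. PRDX1 had a log2 fold change of -0.15 (SE 0.12, adjusted p = 0.309), with overlapping groups. The median over the 8 genes was 1.02, against -0.01 over all genes tested. The comparisons against EV share its 3 libraries, so they are not independent of each other.

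Replicate 3 of YAP-TFE3 was nearest to EV for NFE2L2, HMOX1, NQO1, TXNRD1, GCLC and GCLM. The median log2 ratio of the 8 genes to the EV mean was 1.12 and 1.09 in replicates 1 and 2 and 0.58 in replicate 3. TFE3 RNA, endogenous and transduced together, moved with it, at 296, 325 and 228 CPM. The share of mitochondrial counts went the other way, at 3.63%, 3.79% and 5.12%, and the part of either in this spread was not tested. Without replicate 3 the log2 fold changes were 2.23 for TXNRD1, 1.63 for GCLM, 1.34 for NQO1, 1.19 for HMOX1, 1.01 for GCLC, 0.99 for NFE2L2 and -0.52 for KEAP1, with adjusted p at most 0.000127. PRDX1 then fell by 0.37 (SE 0.10, adjusted p = 0.00264), a call that was made only without that library.

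**Figure D2:**
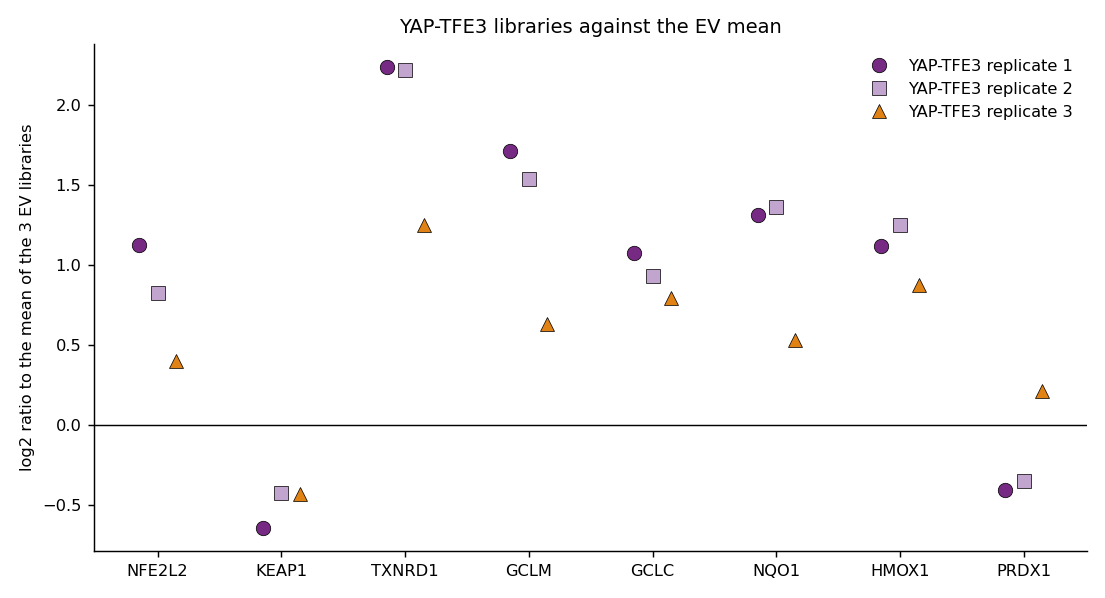
The log2 ratio of each YAP-TFE3 library to the mean of the 3 EV libraries, for the 8 tested genes, with 1 symbol per replicate. Replicate 3 lies below the other 2 replicates for NFE2L2, TXNRD1, GCLM, GCLC, NQO1 and HMOX1 and above them for PRDX1.

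In TAZ-CAMTA1 against EV, NQO1 rose by 0.57 on the log2 scale (SE 0.14, adjusted p = 0.0166) and GCLC by 0.34 (SE 0.10, adjusted p = 0.048). These 2 of 8 genes were called higher and 0 lower, against 3.55% and 1.44% of all genes tested. NFE2L2 at 0.47 (SE 0.16, adjusted p = 0.0862), TXNRD1 at 0.52 (SE 0.16, adjusted p = 0.0682) and GCLM at 0.59 (SE 0.18, adjusted p = 0.063) did not pass, although each TAZ-CAMTA1 library was above each EV library. The log2 fold changes of KEAP1, HMOX1 and PRDX1 were -0.10, 0.06 and -0.0033. The median was 0.41, against 0.0049 over all genes. The call of GCLC was lost without any 1 of the 6 libraries compared (adjusted p 0.0669 to 0.163), and that of NQO1 without EV replicate 1 (adjusted p = 0.0924) or TAZ-CAMTA1 replicate 1 (adjusted p = 0.109). DESeq2 called NQO1, GCLC, GCLM (adjusted p = 0.0311) and TXNRD1 (adjusted p = 0.0394).

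In the libraries labelled TAZ4SA against EV, TXNRD1 rose by 2.10 (SE 0.17, adjusted p = 3.3e-10) and NQO1 fell by 0.95 (SE 0.14, adjusted p = 6e-06). GCLM rose by 0.45 (SE 0.18, adjusted p = 0.0461), a call lost without any 1 of the 6 libraries (adjusted p 0.0664 to 0.134). Thus 2 of 8 genes were called higher and 1 lower, against 25.1% and 24.2% of all genes tested. The log2 fold changes of NFE2L2, KEAP1, HMOX1, GCLC and PRDX1 were -0.25, -0.19, -0.28, -0.06 and -0.12, none of which passed. When libraries were scaled by their totals alone, the median of all genes shifted by -0.20, GCLM was no longer called (adjusted p = 0.287), and NFE2L2, KEAP1, HMOX1 and PRDX1 were called lower. Relative to that median their log2 fold changes were -0.21, -0.15, -0.25 and -0.09. TXNRD1 and NQO1 were called in the same directions under that scaling.

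In YAP5SA against EV, TXNRD1 rose by 2.53 (SE 0.17, adjusted p = 1.58e-11) and GCLM by 0.74 (SE 0.18, adjusted p = 0.0019). NQO1 fell by 0.58 (SE 0.14, adjusted p = 0.00177), KEAP1 by 0.34 (SE 0.09, adjusted p = 0.00362) and HMOX1 by 0.36 (SE 0.14, adjusted p = 0.0454). The counts of 2 higher and 3 lower among 8 genes stand beside 22.7% and 21.6% of all genes tested. NFE2L2, GCLC and PRDX1 had log2 fold changes of -0.04, 0.06 and -0.0036. The call of HMOX1 was lost without EV replicate 2 (adjusted p = 0.123) or replicate 3 (adjusted p = 0.107) and without YAP5SA replicate 1 (adjusted p = 0.0909) or replicate 3 (adjusted p = 0.142). Total-count scaling shifted the median of all genes by -0.18 and changed none of the 5 calls.

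In TFE3 against EV, 0 of 8 genes were called by edgeR or by DESeq2, against 0.035% of all genes called higher and 0% lower. Of the 8, 0 had an unadjusted p under 0.05, against 434 higher and 323 lower of all 19997 genes tested. The log2 fold changes were 0.27 for HMOX1, 0.24 for NFE2L2, 0.16 for NQO1, 0.15 for GCLC, and between -0.06 and 0.04 for the others. HMOX1 and NQO1 were higher in each TFE3 library than in each EV library. In CAMTA1 against EVsub, 0 of 8 genes were called by edgeR or by DESeq2, against 1.26% of all genes called higher and 0.57% lower. At an unadjusted p under 0.05, 1279 of all 19997 genes tested were higher in that comparison and 1195 lower. TXNRD1 (log2 fold change 0.36, SE 0.16, adjusted p = 0.35) and HMOX1 (log2 fold change -0.45, SE 0.14, adjusted p = 0.123) had an unadjusted p under 0.05, 1 in each direction, and neither overlapped between groups. In a fit of these 2 groups alone both passed (adjusted p = 0.00847 and 0.0407). The other 6 lay between -0.17 for KEAP1 and 0.13 for NFE2L2.

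Vector cells titled sub-confluent, EVsub, were compared with EV. GCLM rose by 0.96 (SE 0.18, adjusted p = 0.000299), TXNRD1 by 0.93 (SE 0.16, adjusted p = 0.000133), NFE2L2 by 0.45 (SE 0.16, adjusted p = 0.0284), NQO1 by 0.40 (SE 0.14, adjusted p = 0.0275) and GCLC by 0.27 (SE 0.10, adjusted p = 0.0367). These 5 of 8 were called higher and 0 lower, against 19.8% and 17.1% of all genes tested. KEAP1 and HMOX1 had log2 fold changes of -0.13 each and PRDX1 of 0.12. The calls of TXNRD1 and GCLM were made without any 1 of the 6 libraries and under total-count scaling, which ended the other 3 (adjusted p 0.0568 to 0.178). That of NFE2L2 was lost without EV replicate 2 (adjusted p = 0.114) or 3 (adjusted p = 0.0534) and EVsub replicate 1 (adjusted p = 0.0882) or 2 (adjusted p = 0.062), and that of NQO1 without EV replicate 1 (adjusted p = 0.113) and EVsub replicate 2 (adjusted p = 0.0783) or 3 (adjusted p = 0.0709). That of GCLC was lost without EV replicate 2 or 3 or any EVsub library (adjusted p 0.0537 to 0.133). As titled or described, EVsub and CAMTA1 cells were collected at another density than the other 6 groups, so in CAMTA1 against confluent groups density and construct cannot be told apart.

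**Figure D3:**
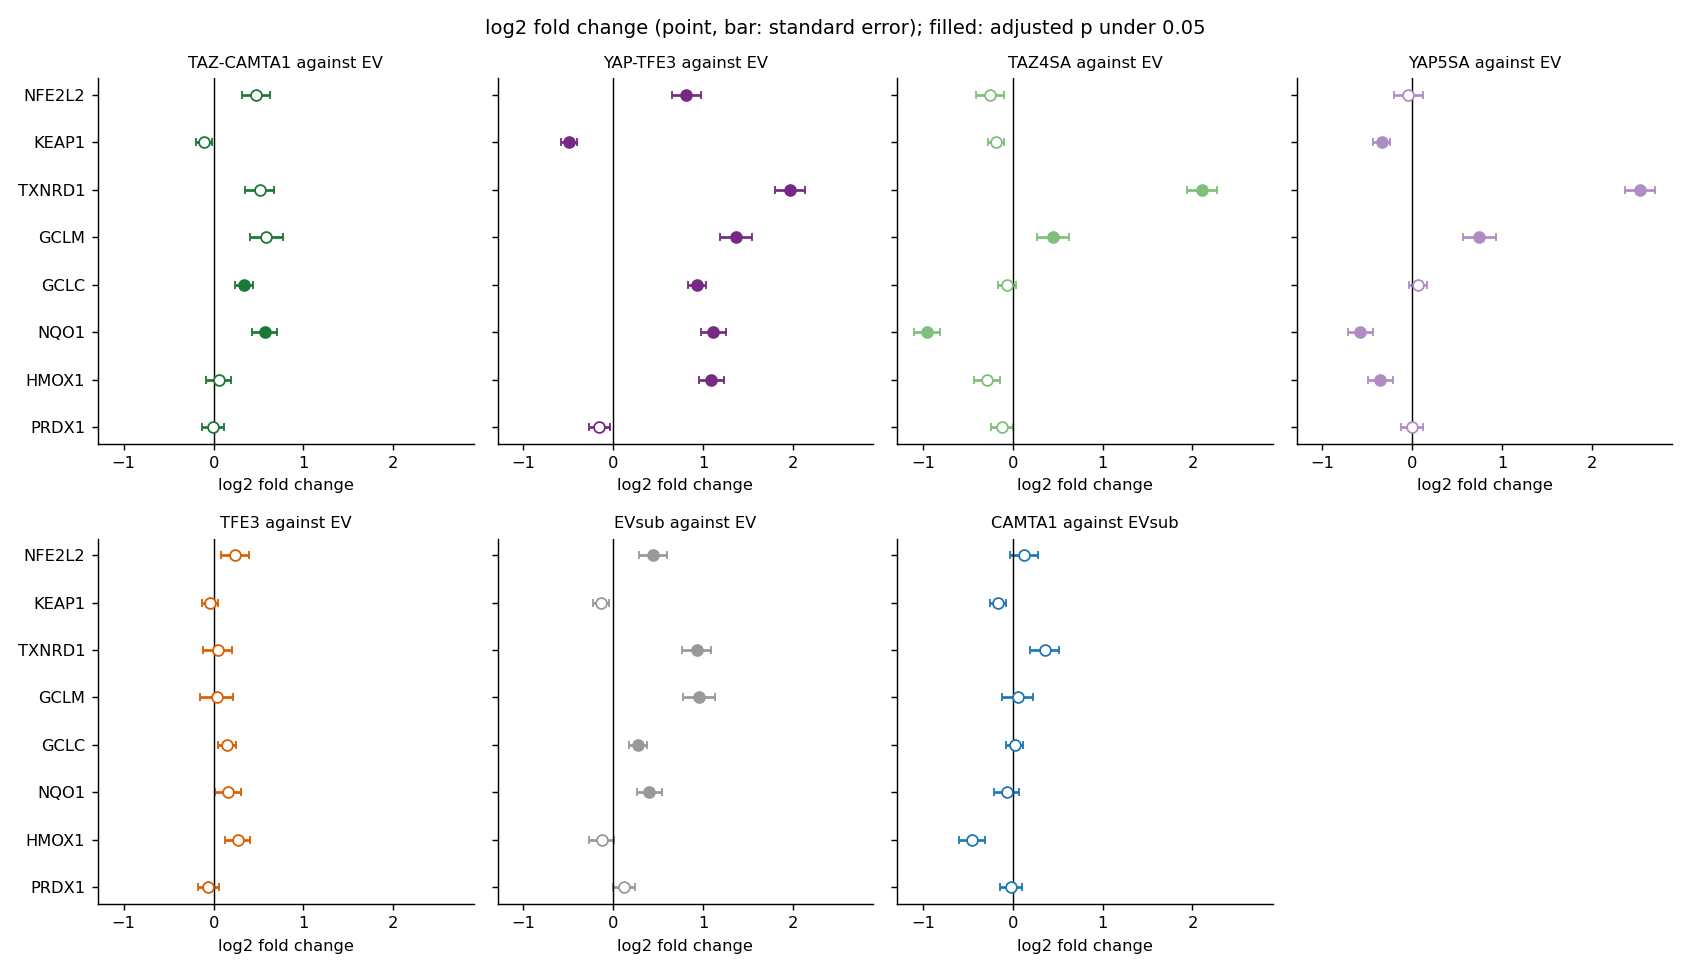
The log2 fold change (points) with its standard error (bars) of the 8 tested genes in each group against EV, and in CAMTA1 against EVsub. Filled points passed an adjusted p of 0.05, and the panels show 7 filled points for YAP-TFE3, 5 for YAP5SA and for EVsub, 3 for the libraries labelled TAZ4SA, 2 for TAZ-CAMTA1 and 0 for TFE3 and for CAMTA1.

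Each fusion was also set against its hyperactive parent. In TAZ-CAMTA1 against the libraries labelled TAZ4SA, NQO1 was higher by 1.52 (SE 0.14, adjusted p = 5.45e-09), NFE2L2 by 0.73 (SE 0.16, adjusted p = 0.000453) and GCLC by 0.40 (SE 0.10, adjusted p = 0.00161), while TXNRD1 was lower, with a log2 fold change of -1.59 (SE 0.16, adjusted p = 2.61e-08). HMOX1 was higher by 0.34 (SE 0.14, adjusted p = 0.0452), with overlapping groups. These 4 higher and 1 lower of 8 stand beside 26.9% and 26.8% of all genes tested. The call of HMOX1 was lost without either of replicates 2 (adjusted p = 0.132) and 3 (adjusted p = 0.14) labelled TAZ4SA, and without TAZ-CAMTA1 replicate 1 (adjusted p = 0.352) or 2 (adjusted p = 0.14). KEAP1, GCLM and PRDX1 differed by 0.08, 0.14 and 0.12 and did not pass, and under total-count scaling, which shifted the median of all genes by 0.20, KEAP1 and PRDX1 were called higher, by 0.06 and 0.09 relative to that median.

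In YAP-TFE3 against YAP5SA, NQO1, HMOX1, GCLC, NFE2L2 and TXNRD1 were called in the same directions as in that comparison. Both comparisons come from the same fit, although they share no libraries. The share of all genes called alike in both was not counted. NQO1 was higher by 1.69 (SE 0.14, adjusted p = 7.76e-10), HMOX1 by 1.45 (SE 0.14, adjusted p = 8.89e-09), GCLC by 0.87 (SE 0.10, adjusted p = 1.07e-07), NFE2L2 by 0.86 (SE 0.16, adjusted p = 6.88e-05) and GCLM by 0.62 (SE 0.18, adjusted p = 0.00498). TXNRD1 was lower, with a log2 fold change of -0.56 (SE 0.16, adjusted p = 0.0051). The 5 higher and 1 lower of 8 stand beside 28.1% and 24.3% of all genes. GCLM overlapped between the groups and was not called without YAP-TFE3 replicate 1 (adjusted p = 0.0617). In a fit of these 2 groups alone neither GCLM (adjusted p = 0.0561) nor TXNRD1 (adjusted p = 0.057) passed. Without YAP-TFE3 replicate 3 the difference was 0.89 for GCLM (adjusted p = 3.29e-06) and -0.30 for TXNRD1 (adjusted p = 0.0214), and PRDX1 was called lower at -0.37 (adjusted p = 0.00253).

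The fusions were set against each other, and YAP-TFE3 against full-length TFE3. In YAP-TFE3 against TAZ-CAMTA1, TXNRD1 was higher by 1.46 (SE 0.16, adjusted p = 1.32e-07), HMOX1 by 1.04 (SE 0.14, adjusted p = 2e-06), GCLM by 0.78 (SE 0.18, adjusted p = 0.00099), GCLC by 0.59 (SE 0.10, adjusted p = 3.26e-05) and NQO1, with overlapping groups, by 0.55 (SE 0.14, adjusted p = 0.00287). KEAP1 was lower, with a log2 fold change of -0.39 (SE 0.09, adjusted p = 0.0012). This made 5 higher and 1 lower of 8, against 22.8% and 19.9% of all genes. NFE2L2 at 0.34 (SE 0.16, adjusted p = 0.0824) did not pass, and passed without TAZ-CAMTA1 replicate 3 (adjusted p = 0.0432) or without YAP-TFE3 replicate 3 (adjusted p = 0.00745). In a fit of the 2 fusion groups alone NQO1 did not pass (adjusted p = 0.0844). In YAP-TFE3 against TFE3, TXNRD1 was higher by 1.93, GCLM by 1.33, NQO1 by 0.96, HMOX1 by 0.82, GCLC by 0.79 and NFE2L2 by 0.58, and KEAP1 was lower at -0.46, with adjusted p at most 0.00366. This made 6 higher and 1 lower of 8, against 25.4% and 22.5% of all genes. Without YAP-TFE3 replicate 3 TXNRD1 was higher by 1.72 than in TAZ-CAMTA1 and by 2.19 than in TFE3, and PRDX1 was also called lower, at -0.37 against TAZ-CAMTA1 (adjusted p = 0.00322) and -0.32 against TFE3 (adjusted p = 0.009).

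**Figure D4:**
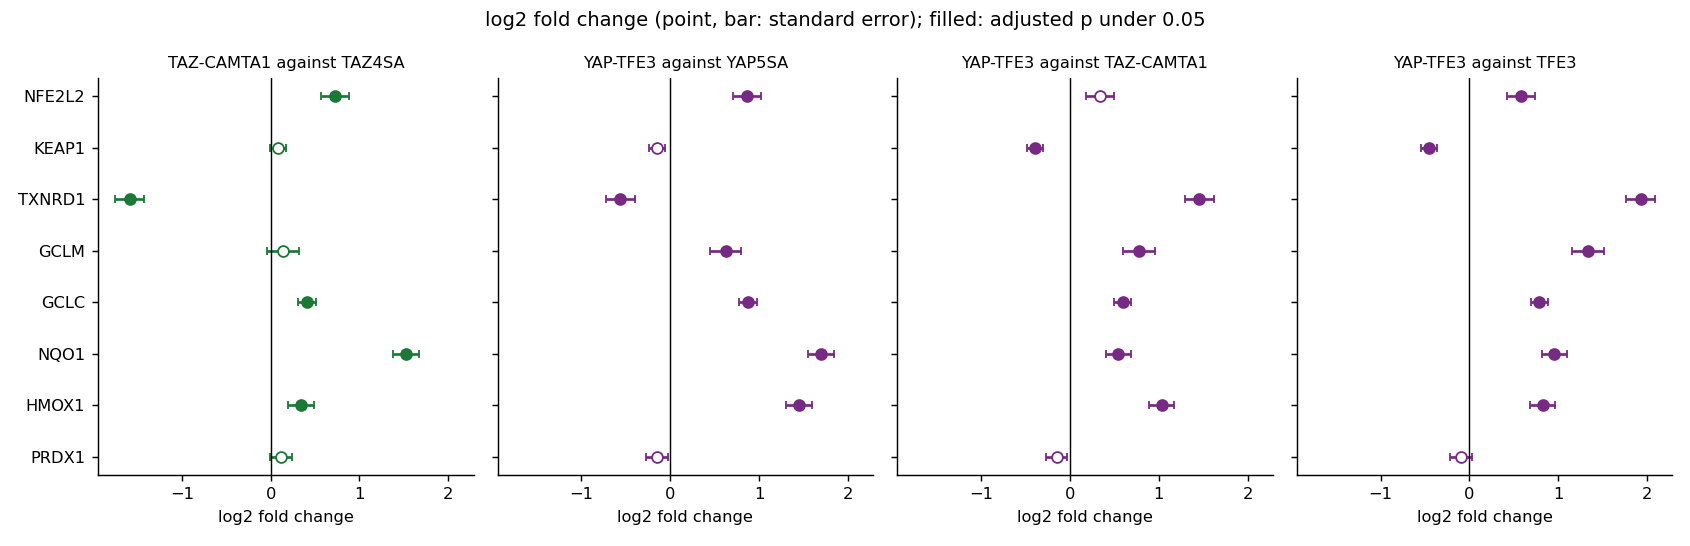
The log2 fold change (points) with its standard error (bars) of the 8 tested genes between fusions, hyperactive parents and TFE3, with filled points at an adjusted p under 0.05. TXNRD1 lies below 0 in both fusions against their parents, where NQO1, NFE2L2, GCLC and HMOX1 lie above 0.

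Beyond these 9 genes, 74 others were taken in 7 pathway lists, which cover NRF2 control and redox, heme, iron and conjugate metabolism. Of these 74, 71 could be tested, and a place in a list does not mean that NRF2 controls the gene. In YAP-TFE3 against EV, 43 of the 71 rose and 9 fell, with a median log2 fold change of 0.55, against 25.6% and 22.6% of all genes and a median of -0.01. Without YAP-TFE3 replicate 3, 40 rose and 11 fell. Among 11 partners and regulators of NRF2, 8 rose, led by the small MAF genes MAFF (log2 fold change 3.87, adjusted p = 6.9e-13) and MAFK (2.03, adjusted p = 2.95e-13) and by SQSTM1 (1.51, adjusted p = 2.19e-10), the autophagy receptor that binds KEAP1, and 2 fell. Of 16 glutathione genes 11 rose and 1 fell, led by SLC7A11 (3.22, adjusted p = 3.42e-06) and SLC3A2 (1.82, adjusted p = 2.35e-07), the subunits of the cystine importer, and CHAC1 (2.60, adjusted p = 8.63e-07), which degrades glutathione. Of 15 genes for quinones, carbonyls and conjugates 10 rose and 0 fell, among them OSGIN1 (3.43, adjusted p = 4.62e-10) and the aldo-keto reductase AKR1C3 (3.49, adjusted p = 2.12e-10). AKR1C1 had 1, 3 and 2 counts in EV and 31, 44 and 34 in YAP-TFE3, and reads of the near-identical AKR1C genes may be shared between them.

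Also in YAP-TFE3 against EV, 6 of 8 heme and iron genes rose and 0 fell. BLVRB, a biliverdin reductase, rose by 3.45 (adjusted p = 4.26e-16) and FTL, the ferritin light chain, by 1.57 (adjusted p = 3.46e-10), and processed copies of FTL in the genome can share its reads. SLC40A1, the iron exporter, had 10, 6 and 7 counts in EV and 50, 35 and 160 in YAP-TFE3, highest in replicate 3. Of 6 genes that supply NADPH 3 rose, ME1 by 1.73 (adjusted p = 2.42e-10), IDH1 by 1.63 (adjusted p = 7.95e-11) and TKT by 0.58 (adjusted p = 0.000151), and 1 fell. Among 12 thioredoxin and peroxiredoxin genes 5 rose, such as SESN2 (1.48, adjusted p = 2.4e-05) and TXN (0.70, adjusted p = 1.18e-07), and 3 fell, led by PRDX2 (-0.85, adjusted p = 1.7e-05). Of 3 superoxide and peroxide genes 0 rose and 2 fell, SOD1 by 0.36 and CAT by 0.36 (adjusted p = 0.000631 and 0.0036). Without YAP-TFE3 replicate 3 the named genes were called in the same directions. The log2 fold changes were then 4.10 for MAFF, 3.58 for SLC7A11, 2.99 for CHAC1, 2.16 for SLC3A2, 3.81 for OSGIN1, 1.83 for SESN2 and 3.49 for BLVRB, while that of SLC40A1 went from 3.01 to 2.15. The counts higher and lower were then 8 and 2 for partners and regulators, 9 and 2 for glutathione, 10 and 1 for quinones, carbonyls and conjugates, 5 and 0 for heme and iron, 4 and 1 for NADPH supply, 4 and 3 for thioredoxin and peroxiredoxin, and 0 and 2 for superoxide and peroxide.

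In TAZ-CAMTA1 against EV, 10 of the 71 rose and 0 fell, with a median of 0.09, against 3.55% and 1.44% of all genes. They included MAFK (1.22, adjusted p = 3.25e-08), NFE2L3, a relative of NFE2L2 (0.74, adjusted p = 2.07e-05), AKR1B10 (2.37, adjusted p = 0.00182), IDH1 (0.79, adjusted p = 0.000111), ME1 (0.76, adjusted p = 0.00096) and GPX8 (0.76, adjusted p = 0.000778). FTH1, the ferritin heavy chain, was also called at 1.94 (adjusted p = 0.014), but its counts were 1807, 1740 and 15300 against 1727, 1165 and 1077 in EV, and without TAZ-CAMTA1 replicate 3, the library that held the counts of SRXN1, it was 0.30 (adjusted p = 0.648). The call was also lost without EV replicate 2 (adjusted p = 0.0827) or 3 (adjusted p = 0.0565). FTH1, like FTL, has processed copies that can share its reads.

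In the libraries labelled TAZ4SA against EV 27 rose and 17 fell, and in YAP5SA 28 rose and 15 fell. Over all genes tested, 25.1% were called higher and 24.2% lower in the former and 22.7% and 21.6% in the latter, so the shares that fell were near those of all genes. The lists had medians of 0.16 and 0.15 against -0.03 and -0.04 over all genes. Under total-count scaling these splits were 17 to 25 and 20 to 21, so the balance of the lists depended on the scaling. The genes with the largest differences included the ones that led in YAP-TFE3. MAFF was at 2.51 (adjusted p = 9.75e-10) in the libraries labelled TAZ4SA and 2.13 (adjusted p = 1.58e-08) in YAP5SA, CHAC1 at 2.68 and 2.40 (adjusted p = 6.36e-07 and 3.29e-06), SLC7A11 at 1.88 and 2.32 (adjusted p = 0.00133 and 0.000197), and SLC3A2 at 1.89 and 2.01 (adjusted p = 1.49e-07 and 6.3e-08). AKR1C3, called higher in YAP-TFE3, was called lower in both, with 7, 3 and 1 counts in the libraries labelled TAZ4SA and 6, 3 and 3 in YAP5SA, against 20, 22 and 29 in EV. CAT, which encodes catalase, was at -1.08 and -0.90 (adjusted p = 2.84e-09 and 5.72e-08). SESN3 (-2.93 and -2.71, adjusted p = 1.27e-11 and 4.17e-11) and SOD3 (-2.62 and -2.72, adjusted p = 7.92e-07 and 7.16e-07) fell in both.

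In EVsub against EV 16 of the 71 rose and 13 fell, near the 19.8% and 17.1% of all genes, and 13 rose and 19 fell under total-count scaling. The largest called falls were those of AKR1C3 (-2.37, adjusted p = 0.000221), with 3, 6 and 6 counts in EVsub, CHAC1 (-2.13, adjusted p = 0.000303) and TXNIP (-2.09, adjusted p = 8.94e-08), which encodes the thioredoxin-binding protein. The genes that rose included MAFF (0.82, adjusted p = 0.00518) and ME1 (0.80, adjusted p = 9.86e-05). In TFE3 against EV, 0 of 71 were called by edgeR or by DESeq2. At an unadjusted p under 0.05, 4 of the 71 were higher and 1 lower, against 434 and 323 of all 19997 genes tested. In CAMTA1 against EVsub 0 rose and 2 fell, GPX7 (-0.57, adjusted p = 0.0188) and FTL (-0.56, adjusted p = 0.0129). The call of GPX7 was lost without CAMTA1 replicate 1 or 2 or EVsub replicate 2 (adjusted p up to 0.136), and that of FTL without CAMTA1 replicate 2 or 3 or EVsub replicate 2 (adjusted p up to 0.0905).

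In YAP-TFE3 against YAP5SA 31 of 71 were higher and 10 lower, beside 28.1% and 24.3% of all genes, and 37 and 12 without YAP-TFE3 replicate 3. Against TFE3 45 were higher and 9 lower, beside 25.4% and 22.5% of all genes, and 42 and 10 without that library. In YAP-TFE3 against TAZ-CAMTA1 37 were higher and 5 lower, beside 22.8% and 19.9% of all genes, and 38 and 10 without that library. In TAZ-CAMTA1 against the libraries labelled TAZ4SA 21 were higher and 26 lower, where 26.9% and 26.8% of all genes were called, or 29 and 18 under total-count scaling.

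**Figure D5:**
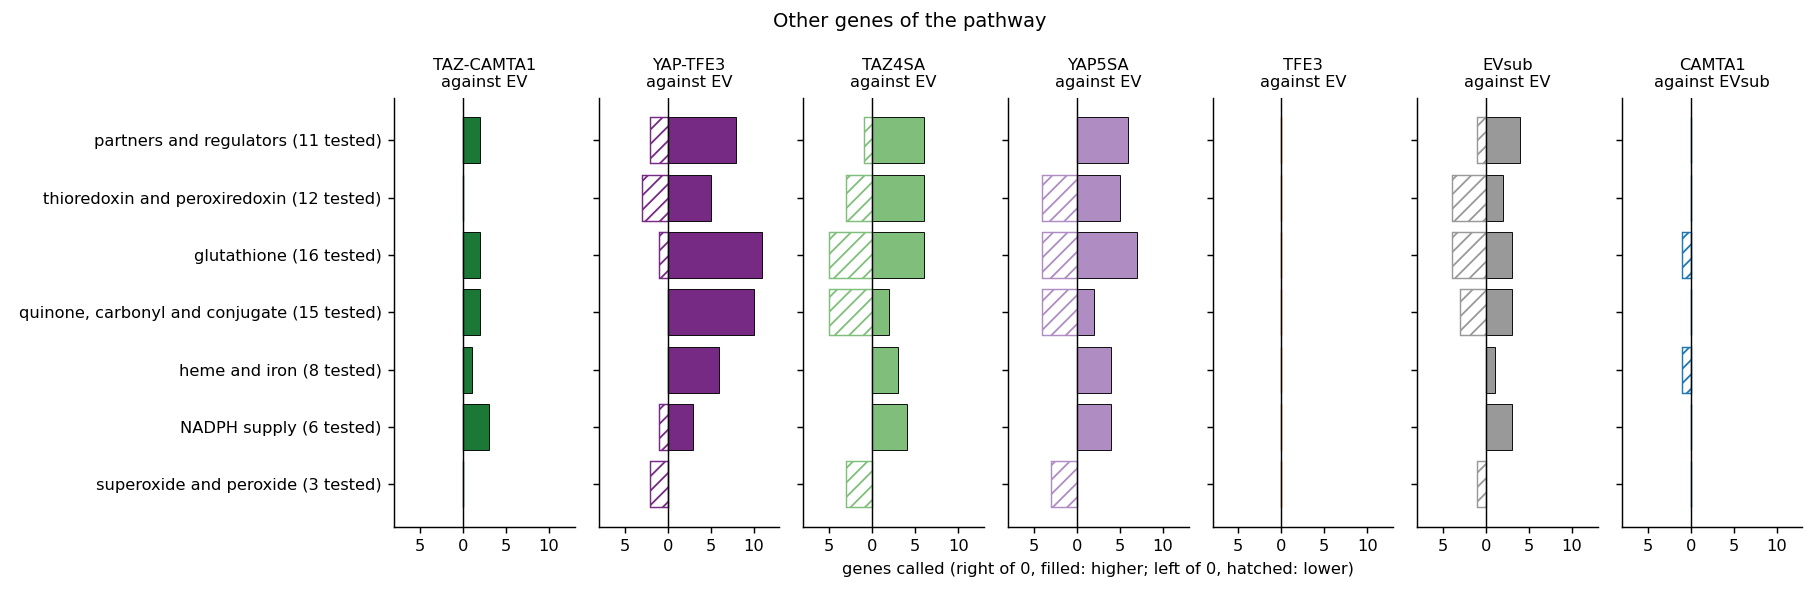
Number of genes called higher (filled bars, right of 0) and lower (hatched bars, left of 0) in each of the 7 pathway lists, by comparison with vector control. YAP-TFE3 has 43 higher and 9 lower over the 7 lists, the libraries labelled TAZ4SA have 27 and 17, YAP5SA has 28 and 15, and TAZ-CAMTA1 has 10 and 0.

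The pattern of each gene over the 8 groups was compared by Pearson correlation of group means of log2 CPM, as a description, since all points come from the same 24 libraries. NFE2L2 varied with NQO1 (Pearson r = 0.95, n = 8 groups) and GCLC (r = 0.88), and these with each other (r = 0.86), whereas TXNRD1 had r = -0.14 with NFE2L2 and -0.34 with NQO1. KEAP1 ran opposite to GCLM (r = -0.84) and TXNRD1 (r = -0.81). Among 12376 genes that averaged 100 counts or more, those most like TXNRD1 over the 8 group means were RAB3GAP1 (r = 0.991), LITAF (r = 0.990) and PAQR5 (r = 0.988), and those most like NQO1 were FAS (r = 0.995), WSB1 (r = 0.994) and ZNF44 (r = 0.993).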

How the data were processed

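Poly(A) RNA of 24 SW872 libraries was prepared with the TruSeq stranded mRNA kit. Each deposited table held the raw, unpooled counts of 1 library by Ensembl gene, made by the authors after alignment of reads to hg38 with hisat2 in bcbio-nextgen, and per the labels with bcl2fastq for base calls. The counting tool and its treatment of strand and of reads with several alignments are not given in the sources used here, and the authors' own tests used DESeq2 on salmon estimates. Groups and replicate numbers came from the sample titles. Of 60279 identifiers, 56104 were found in GENCODE release 44 (GRCh38), which gave symbols, coordinates and exons. Promoters came from RefSeq (GRCh38.p14).

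After TMM scaling, edgeR 4.0.16 (R 4.3.3) was used for quasi-likelihood tests on all 24 libraries, with 1 mean per group, for the 19997 genes that averaged 5 counts or more. A gene was called at a Benjamini-Hochberg adjusted p under 0.05 over all tested genes. CPM means ± SD cover the 3 libraries of a group. Correlations used log2 CPM with a prior count of 2. Alternatives were DESeq2 1.42.0, its size factors, total-count scaling, other filters on low counts, the replicate number as a block, fits of the 2 groups compared, and fits without each library. Counts and named genes of the pathway lists without YAP-TFE3 replicate 3 were added after seeing the data. The genes and lists were chosen with earlier results of these data known. The text names all 9 genes in every group and, from each pathway list and comparison against vector, some of up to 3 called genes with the largest absolute log2 fold change, besides the construct genes and the 3 genes most like TXNRD1 and NQO1. With 3 libraries against 3 an exact permutation test of a single gene cannot reach 0.05, so none was run. Totals per library of 19700277 to 35287476 counts limit the precision of genes with few counts. Why SRXN1 had so few was not tested. The fit was tested on simulated data. Tables were handled with Python 3.11.15 and pandas 2.3.3, and figures were drawn with matplotlib 3.10.9.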

Additional observations from a re-analysis of the deposited data

How the results depend on the processing

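The count of the 8 tested genes called moved most for TAZ-CAMTA1 against EV. From 2 it became 1 with DESeq2 size factors, 1 with total-count scaling, 1 with the replicate block, 4 with DESeq2, 5 with no filter beyond 1 count (SRXN1 among them, on the counts of 1 library) and 5 in a fit of the 2 groups alone. Total-count scaling changed it from 3 to 6 for the libraries labelled TAZ4SA against EV and from 5 to 2 for EVsub against EV. For CAMTA1 against EVsub it went from 0 to 2 with no filter and to 2 in a fit of the 2 groups alone. The replicate block changed no other call. Replicate numbers were not taken as pairs, since the mean correlation of same-numbered libraries per comparison was -0.0962 to 0.129 and in 0 comparisons did every pair exceed 0.1.

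Leaving out 1 library at a time gave 0 to 1 genes for TAZ-CAMTA1 against EV, 2 to 2 for the libraries labelled TAZ4SA, 7 to 8 for YAP-TFE3, 4 to 5 for YAP5SA, 0 to 0 for TFE3, 2 to 4 for EVsub and 0 to 0 for CAMTA1 against EVsub. The direct comparisons gave 4 to 5 for TAZ-CAMTA1 against the libraries labelled TAZ4SA, and for YAP-TFE3 5 to 7 against YAP5SA, 6 to 8 against TAZ-CAMTA1 and 7 to 8 against TFE3. HMOX1 in YAP5SA against EV missed the threshold with DESeq2 size factors (adjusted p = 0.0521). Of 1144 recomputed log2 fold changes, 1069 stayed on the same side of the threshold, 26 passed it newly, 49 no longer passed, and 0 called values changed sign. Total-count scaling moved the numbers of all genes called higher and lower from 5013 and 4835 to 3355 and 7317 for the libraries labelled TAZ4SA, from 4534 and 4325 to 3134 and 6842 for YAP5SA, from 3956 and 3412 to 3106 and 4289 for EVsub, from 252 and 114 to 222 and 169 for CAMTA1, and from 5376 and 5354 to 7486 and 3695 for TAZ-CAMTA1 against the libraries labelled TAZ4SA. For YAP-TFE3 they went from 5125 and 4519 to 4321 and 5536 against EV, from 5618 and 4867 to 6562 and 4043 against YAP5SA, from 4564 and 3970 to 3763 and 5094 against TAZ-CAMTA1 and from 5089 and 4503 to 4223 and 5702 against TFE3. Where no value above shows it, the cause of a change was not tested. Of the 9 genes only SRXN1 had too few counts to be tested.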
